A study of Homo sapiens with 48 samples.

Results

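The 49 genes described here carry a cell through the G1/S transition and copy its DNA. They are a list of symbols, taken from 19102 genes in the deposited table. They fall into 7 roles: 10 licensing and origin genes, 6 helicase activation genes, 9 polymerase and primase genes, 11 genes of the clamp, its loader, single-strand binding and Okazaki fragment joining, 4 nucleotide supply genes, 5 genes of the G1/S switch and 4 chromatin and histone supply genes. All 49 symbols were found in the table.

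As background, cyclin E with its kinase and CDC25A move a cell out of G1, and E2F1 then switches on most of the other genes. ORC, CDC6 and CDT1 load the MCM2 to MCM7 ring on DNA in G1. CDC45 and the GINS complex turn that ring into a working helicase, polymerases and PCNA copy the strands, and RRM1, RRM2, TYMS and TK1 make the nucleotides. p53, through p21 (CDKN1A), holds this programme down with the pocket proteins, by way of E2F sites for the G1/S genes and CHR sites for the G2/M genes.

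A382, a glioblastoma cell line of human origin, was grown in DMEM with 10% FBS, and its polyadenylated RNA was sequenced. In the knockout arm, cells were infected by lentivirus with a guide RNA and collected at day 9. The 16 targets were subunits of the EP400/TIP60 chromatin complex and the histone H2AZ: BRD8 and H2AZ with 2 guides and 2 replicates of each guide, and EP400, TIP60 (the gene KAT5), TRRAP, DMAP1, GAS41 (the gene YEATS4), ACTL6A, MRGBP, ING3, MEAF6, VPS72, RUVBL1, RUVBL2, MORF4L1 and MORF4L2 with 1 library for each of 2 guides. Their controls were the guides sgNeg1, sgNeg2, sgNeg3 and sgNeg4, with 2 libraries each. In the other arm, A382_P53 cells, which carry doxycycline-inducible p53, were set against A382_PCW cells with a control vector, both at day 2 of doxycycline and with 2 libraries each. The labels name no isolated clone, so a library may hold cells in which the target is intact, and nothing says that replicates were separate cultures, so a p-value here measures how libraries vary, which may be technical variation.

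Values are FPKM, fragments divided by transcript length and library size, in 5 blocks of columns set apart by empty header cells. The blocks were taken as normalised separately, so every knockout is compared with the control pair of its own block only. A difference is the mean of log2(FPKM + 1) in the first group minus that in the second, which understates the change of low genes. A gene is called higher or lower at an adjusted p under 0.05 in limma, over all genes tested in that block. Depth varied, and 1 FPKM equalled between 4.21 and 21.4 fragments per kilobase in different libraries. The second-guide columns of MEAF6 and VPS72 hold identical values for all 19102 genes and were left out, which leaves 46 of 48 libraries, with MEAF6 and VPS72 at 1 library each.

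The cells had VIM at 926 to 11301 FPKM and CD44 at 118 to 643 FPKM, while the glial genes GFAP, OLIG2, S100B and FABP7 were at or near 0 in every library, with GFAP at most 0.347 FPKM. Of the neural stem cell genes, SOX2 was at 6.64 to 79.0 FPKM in 4 blocks but at 0.0644 to 0.233 FPKM in the BRD8 block, and NES reached at most 8.75 FPKM. COL1A1, a fibroblast collagen gene, was at 96.4 to 574 FPKM. The defining immune genes PTPRC, CD3E and AIF1 stayed at or under 0.173 FPKM, while CD68, a lysosomal gene not limited to macrophages, reached 74.0 FPKM. Of the epithelial genes, CDH1 and EPCAM stayed at or under 0.660 FPKM, and the keratins KRT8 and KRT18 were at 5.92 to 44.4 and 32.4 to 156 FPKM. In endothelial genes PECAM1 and CDH5 stayed at or under 0.153 FPKM, and VWF reached 3.28 FPKM. The targeted mRNA averaged 43.1% of sgNeg1 for BRD8, 48.5% and 51.5% of sgNeg2 for EP400 and KAT5, and 40.1% and 28.5% of sgNeg3 for RUVBL1 and RUVBL2. TRRAP mRNA averaged 82.3% of sgNeg2 and was not called.

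Across the 16 knockouts, 42 of the 49 members were called in at least 1 knockout. That is 87.5% of the 48 members tested in any, against 72.9% of the 11706 genes tested in any, so most genes of the table were called somewhere. Of the 42 members, 18 were called only lower, 11 only higher and 13 in both directions in different knockouts. The 7 members called in no knockout were POLA1, POLD2, POLD3, RFC2, CDC25A, SLBP and E2F2. E2F2, an activating E2F factor, never exceeded 0.947 FPKM and passed the filter on low values in no block. In the bulk RNA used here, fewer cells in S phase and less of a transcript in each cell cannot be told apart.

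**Figure D1:**
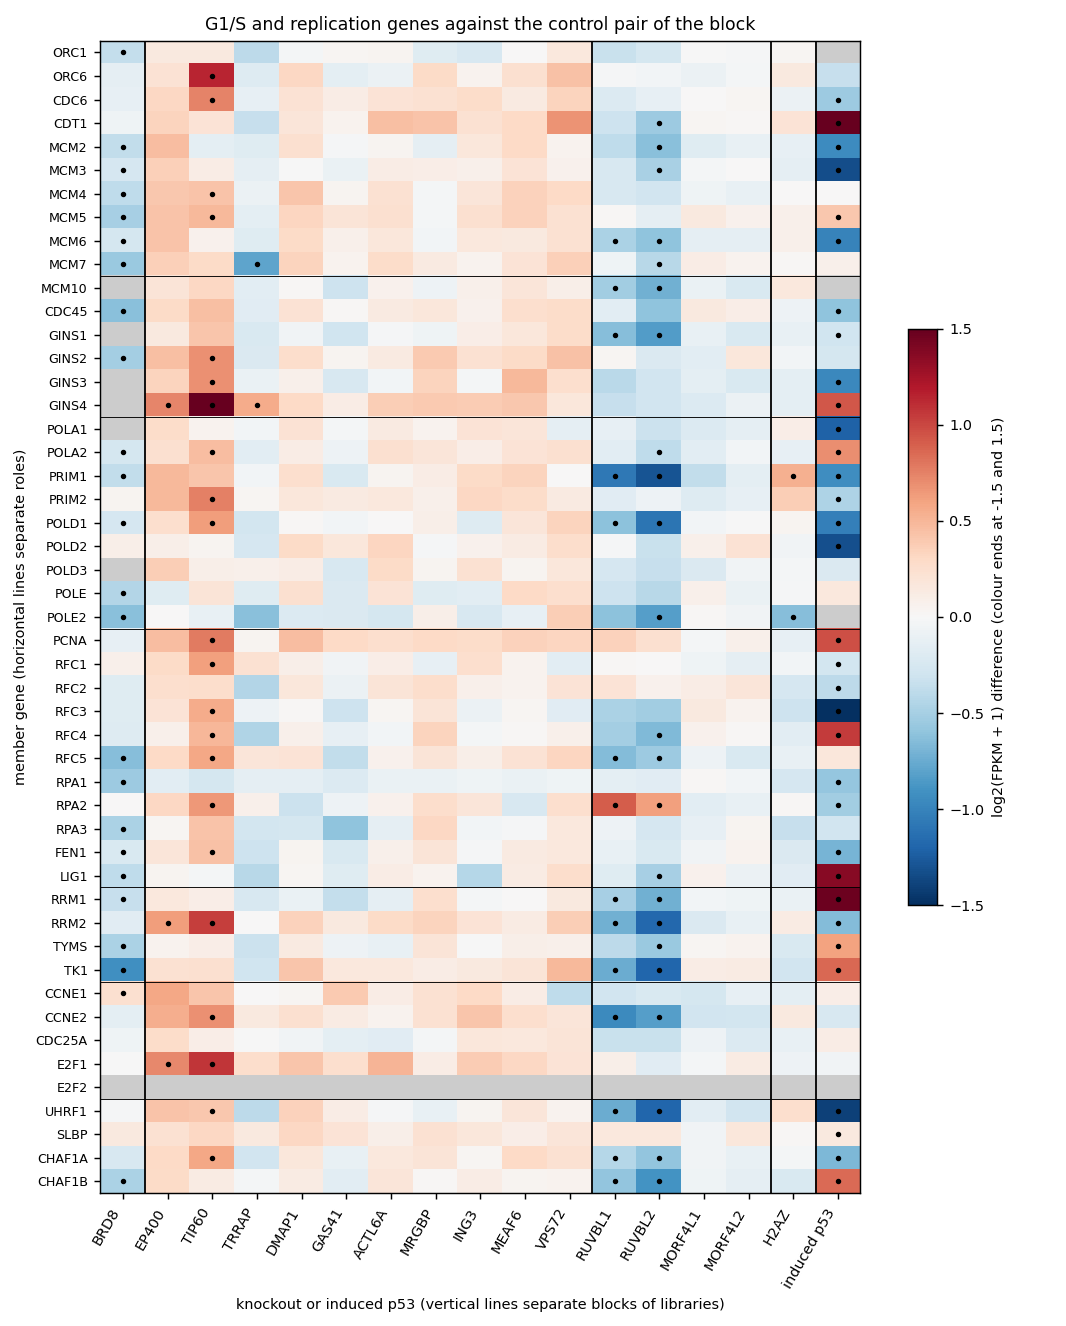
Difference in log2(FPKM + 1) between each knockout, or induced p53, and the control pair of its block, for the 49 members ordered by role; a dot marks a gene called at an adjusted p under 0.05 and grey marks a gene that was not tested. The BRD8, RUVBL1 and RUVBL2 columns are mostly blue with 23, 13 and 22 members called lower, the TIP60 column is mostly red with 22 called higher, and the induced p53 column holds both colours.

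The upstream sequences of the members were read because most called members shared a direction within BRD8, RUVBL1, RUVBL2 and TIP60 knockouts. RefSeq windows of 250 bases before to 50 bases after the start of each gene (build GRCh38.p14) were held for 42 of the 49 members. POLD3, GINS4, CCNE2, RPA2, MCM4, RPA3 and MCM5 had no entry. The E2F motif was searched as TTTCCCGC, TTTGGCGC and TTTCGCGC on both strands. At least 1 of the 3 stood in 21 of the 42 windows (50%), in 3 of 30 windows of a comparison list of G2/M and mitosis genes (10.0%) and in 763 of 27195 windows of all genes (2.81%). The CHR motif, TTTGAA on either strand, had the opposite share, with 1 of 42 members (2.38%), 21 of 30 G2/M genes (70.0%) and 15.4% of all windows. CCAAT, the NF-Y motif, stood in 57.1% of members, 73.3% of G2/M genes and 35.7% of all windows.

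Having an E2F match did not separate the members that were called from those that were not. In BRD8 knockouts 10 of 17 tested members with a match and 10 of 20 without one were called lower. In TIP60 knockouts 8 of 20 with a match and 9 of 21 without one were called higher. In RUVBL2 knockouts 11 of 20 with a match and 10 of 21 without one were called lower. These counts are a description of letters in a fixed window, not of binding.

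The 250 bases upstream of 7 members are printed 5′ to 3′ on the gene's strand, with each E2F match in capitals: 5 that hold a match upstream of the start, taken by the number of knockouts in which they were called (3 each, and 2 for E2F1, which came first by name among several with 2), and POLD1 and PRIM1, which were each called in 4 knockouts and hold none. They lie at chr2:135876444-135876693 (MCM6, minus strand), chr7:100101398-100101647 (MCM7, minus strand), chr11:65261712-65261961 (POLA2, plus strand), chr19:4909251-4909500 (UHRF1, plus strand), chr20:33686386-33686635 (E2F1, minus strand), chr19:50384073-50384322 (POLD1, plus strand) and chr12:56752324-56752573 (PRIM1, minus strand). Counted from the start of the gene, the matches begin 20 bases upstream in E2F1, 14 in UHRF1, 9 in MCM7 for the nearer of 2, and 53 in POLA2. MCM6 holds 2 stretches in which TTTGGCGC overlaps a TTTCGCGC of the other strand.
MCM6: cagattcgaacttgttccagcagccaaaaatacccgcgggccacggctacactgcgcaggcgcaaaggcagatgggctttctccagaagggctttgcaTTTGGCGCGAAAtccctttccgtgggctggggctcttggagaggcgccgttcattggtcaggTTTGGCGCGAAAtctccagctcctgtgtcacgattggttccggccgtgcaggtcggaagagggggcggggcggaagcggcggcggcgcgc
MCM7: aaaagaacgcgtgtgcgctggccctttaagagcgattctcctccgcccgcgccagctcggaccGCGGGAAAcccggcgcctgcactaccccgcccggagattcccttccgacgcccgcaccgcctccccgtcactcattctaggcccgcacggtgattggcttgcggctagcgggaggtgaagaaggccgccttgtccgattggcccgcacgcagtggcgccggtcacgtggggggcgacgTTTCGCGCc
POLA2: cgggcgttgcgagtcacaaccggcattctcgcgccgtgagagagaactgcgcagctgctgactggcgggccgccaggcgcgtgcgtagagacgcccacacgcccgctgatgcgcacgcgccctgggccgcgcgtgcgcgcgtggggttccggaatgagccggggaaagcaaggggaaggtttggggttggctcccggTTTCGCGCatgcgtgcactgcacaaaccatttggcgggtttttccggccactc
UHRF1: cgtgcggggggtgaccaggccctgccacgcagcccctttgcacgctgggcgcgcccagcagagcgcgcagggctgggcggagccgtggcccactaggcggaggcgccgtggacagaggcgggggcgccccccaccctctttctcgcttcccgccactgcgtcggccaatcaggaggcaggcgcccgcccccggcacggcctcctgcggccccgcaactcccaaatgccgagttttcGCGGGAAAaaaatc
E2F1: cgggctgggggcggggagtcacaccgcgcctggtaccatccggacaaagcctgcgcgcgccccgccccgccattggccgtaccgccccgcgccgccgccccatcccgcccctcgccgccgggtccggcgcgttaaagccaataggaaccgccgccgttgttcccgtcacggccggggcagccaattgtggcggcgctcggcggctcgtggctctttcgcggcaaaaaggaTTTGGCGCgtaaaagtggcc
POLD1: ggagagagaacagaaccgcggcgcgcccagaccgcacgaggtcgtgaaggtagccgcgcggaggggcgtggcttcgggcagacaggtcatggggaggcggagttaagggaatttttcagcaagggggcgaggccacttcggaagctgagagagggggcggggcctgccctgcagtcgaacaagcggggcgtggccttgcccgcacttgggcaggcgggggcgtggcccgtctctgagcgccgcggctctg
PRIM1: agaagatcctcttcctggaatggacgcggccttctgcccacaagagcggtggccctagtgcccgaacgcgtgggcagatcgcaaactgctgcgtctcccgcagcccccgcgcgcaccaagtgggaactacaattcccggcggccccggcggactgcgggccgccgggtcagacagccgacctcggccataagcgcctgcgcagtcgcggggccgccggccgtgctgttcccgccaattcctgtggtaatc

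BRD8 is a bromodomain subunit of the complex, and its knockout addressed what the complex's reader does to this programme in A382 cells. Licensing, helicase, polymerase and nucleotide genes were lower in BRD8 knockouts than in sgNeg1 libraries. Of 42 members tested, 23 were called lower and 1 higher, against 21.7% lower and 24.2% higher among all 8458 genes tested. The median difference was -0.25 over the members and 0.02 over all genes. In 25 of the 42 members all 4 BRD8 libraries lay below both sgNeg1 libraries, and in 2 they lay above. The same count was not made over all 8458 genes. MCM10, GINS1, GINS3, GINS4, POLA1, POLD3 and E2F2 were too low in this block to be tested.

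Of the licensing genes 7 of 10 fell. MCM7, a subunit of the ring, had 11.8, 12.6, 14.7 and 13.7 FPKM in the BRD8 libraries (both replicates of guide 1, then both of guide 2), against 17.9 and 21.8 FPKM in sgNeg1. No BRD8 library reached the lower sgNeg1 library, and the difference was -0.55 (SE 0.096, adjusted p = 0.00127). MCM5, its ring neighbour, averaged 7.11 ± 0.659 FPKM in BRD8 knockouts (SD, n = 4) and 10.5 ± 1.07 FPKM in sgNeg1 (SD, n = 2), a difference of -0.50 (adjusted p = 0.0012 in limma). An n of 4 here pools 2 guides with 2 replicates each. The guides differed, with summed member levels of 262 and 271 FPKM for guide 1 and 302 and 286 FPKM for guide 2. Both helicase activators that could be tested fell. CDC45 had 3.68, 4.01, 5.17 and 4.69 FPKM in BRD8 libraries, against 7.04 and 7.54 FPKM in sgNeg1, so the groups did not overlap. GINS2 averaged 62.3% of its sgNeg1 level.

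Of 7 polymerase and primase genes tested 5 fell. POLE2, a small subunit of the leading-strand polymerase, averaged 0.872 ± 0.226 FPKM in BRD8 knockouts (SD, n = 4) and 1.88 ± 0.179 FPKM in sgNeg1 (SD, n = 2), and POLE, its catalytic subunit, averaged 68.4% of sgNeg1. Of the 11 clamp, loader and joining genes 5 fell. RFC5, a subunit of the loader that opens PCNA, had 2.69, 3.09, 2.90 and 3.22 FPKM in BRD8 libraries, against 5.41 and 5.0 FPKM in sgNeg1. The spread within each group was small beside the gap, and the difference was -0.64 (SE 0.075, adjusted p = 0.000134), the smallest adjusted p among the members here. RPA1, the large subunit of the single-strand binding protein, averaged 65.7% of sgNeg1. FEN1, the flap nuclease, was called lower, but its level was 1.05 to 1.19 FPKM in BRD8 libraries and 1.39 and 1.62 FPKM in sgNeg1, while the other control pairs held 12.4 to 55.5 FPKM. As with SOX2, FEN1 was thus far lower in this block than in the others. The whole block was lower, with 8081 to 8158 genes at 1 FPKM per library, against 10503 to 11853 in the others. Summed FPKM were 147634 to 175419, against 320146 to 661802. CDKN1A had 12.9 and 13.2 FPKM in sgNeg1 and 201 to 299 FPKM in the other sgNeg pairs. How the block was made is not given in the sources used here, and its part in these results was not tested.

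The largest difference of any member was in nucleotide supply, a group with a median of -0.41, against -0.57 for the 2 helicase activators tested. TK1, the salvage thymidine kinase, had 5.51, 4.57, 7.80 and 6.75 FPKM in BRD8 libraries, against 11.4 and 13.5 FPKM in sgNeg1. Every BRD8 library was below both controls and the mean was 49.5% of theirs, a difference of -0.93 (SE 0.15, adjusted p = 0.00103). TYMS, which makes thymidylate, averaged 17.4 ± 1.83 FPKM in BRD8 knockouts (SD, n = 4) and 24.5 ± 1.57 FPKM in sgNeg1 (SD, n = 2). RRM2, the S phase subunit of ribonucleotide reductase, was not called, while its partner RRM1 fell.

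The switch genes did not follow. CCNE1, cyclin E1, was the 1 member called higher, with 2.20, 2.50, 2.09 and 2.42 FPKM in BRD8 libraries, against 1.89 and 1.70 FPKM in sgNeg1 (difference 0.24, adjusted p = 0.0275 in limma). That call was lost with no filter on low values and with guide 2 alone. E2F1, CCNE2 and CDC25A were not called. CHAF1B, a subunit of the histone chaperone CAF-1, averaged 64.8% of sgNeg1, and UHRF1, SLBP and CHAF1A were not called.

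Among genes outside the 49, CDK2, the kinase partner of cyclin E, averaged 47.5% of sgNeg1 in BRD8 knockouts, and CDKN1A, which encodes the CDK inhibitor p21, averaged 132%. RRM2B, the ribonucleotide reductase subunit that p53 switches on, averaged 139%. Of 34 other S phase genes tested 14 fell and 2 rose, with TIMELESS, a fork protection gene, at 66.1% and RNASEH2A, which removes RNA from DNA, at 65.5% of sgNeg1. Of 14 G1 regulators 5 rose and 3 fell. Of 34 G2/M and mitosis genes all 34 fell, with a median of -0.72, and CDC25B, the phosphatase that starts mitosis, averaged 43.5% of sgNeg1. Without sgNeg1 replicate 2, 14 members were called in place of 24.

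**Figure D2:**
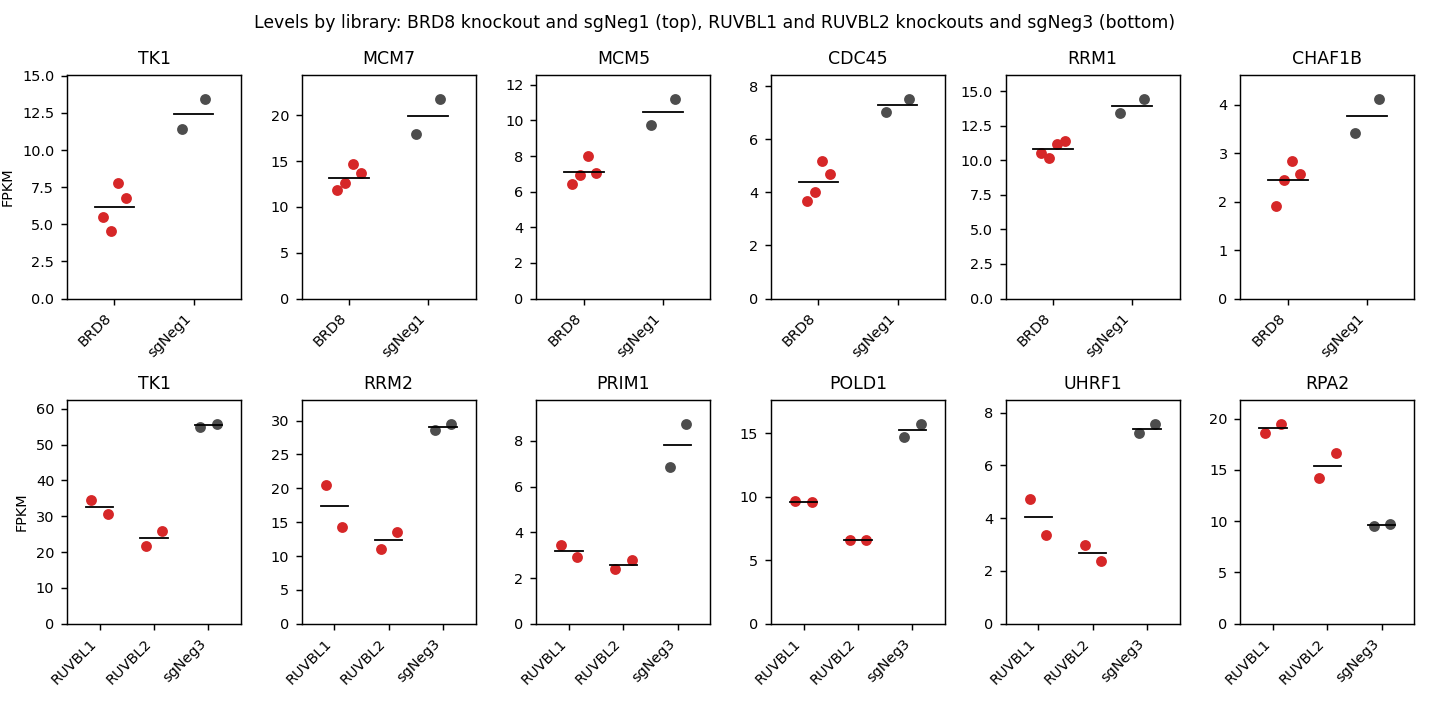
FPKM (vertical axes, from 0) of 6 members in each library of BRD8 knockouts (red) and sgNeg1 (grey) in the top row, and of 6 members in RUVBL1 and RUVBL2 knockouts (red) and sgNeg3 (grey) in the bottom row; points are libraries and lines are group means. All knockout points lie below the control points except for RPA2, where RUVBL1 and RUVBL2 libraries reach 14.2 to 19.5 FPKM and sgNeg3 9.53 and 9.75 FPKM.

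RUVBL1 and RUVBL2 are the paired ATPases that help build the complex and also serve other chromatin remodellers. In RUVBL2 knockouts, the nucleotide supply and chromatin groups had the lowest medians, -0.95 and -0.74. Of 48 members tested 22 were called lower and 1 higher, against 19.9% lower and 13.5% higher among 11063 genes. The median was -0.40 over the members and -0.05 over all genes. In RUVBL1 knockouts 13 were called lower and 1 higher, against 15.5% lower and 12.3% higher among the same genes, with medians of -0.29 and -0.02. The 2 knockouts share the sgNeg3 pair as their control.

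Of the licensing genes 5 of 10 fell in RUVBL2 knockouts and 1 of 10, MCM6, in RUVBL1 knockouts. MCM6, a ring subunit, had 7.55 and 9.0 FPKM in RUVBL2 libraries and 10.3 and 8.03 FPKM in RUVBL1 libraries, against 13.1 and 13.1 FPKM in sgNeg3. MCM10 and GINS1, which help the ring to unwind DNA, were called lower in both. GINS1 had 3.86 and 3.45 FPKM in RUVBL2 libraries and 4.71 and 4.02 FPKM in RUVBL1 libraries, against 7.11 and 7.54 FPKM in sgNeg3, so no library of either knockout came near the controls.

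PRIM1, the catalytic subunit of primase, which makes the RNA primers, had the largest fall of any member in both knockouts. It had 2.40 and 2.78 FPKM in RUVBL2 libraries and 3.44 and 2.91 FPKM in RUVBL1 libraries, against 6.88 and 8.75 FPKM in sgNeg3. The differences were -1.29 (SE 0.14, adjusted p = 0.000349) for RUVBL2 and -1.07 (SE 0.14, adjusted p = 0.00149) for RUVBL1. POLD1, the catalytic subunit of the lagging-strand polymerase, had 6.62 and 6.63 FPKM in RUVBL2 libraries and 9.68 and 9.56 FPKM in RUVBL1 libraries, against 14.7 and 15.8 FPKM in sgNeg3. The primase partner PRIM2 was called in neither knockout.

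Nucleotide supply fell as a group, with 4 of 4 genes lower in RUVBL2 knockouts and 3 of 4 in RUVBL1 knockouts. TK1 had 21.8 and 25.8 FPKM in RUVBL2 libraries and 34.6 and 30.7 FPKM in RUVBL1 libraries, against 54.9 and 55.8 FPKM in sgNeg3. RRM2 had 11.1 and 13.5 FPKM in RUVBL2 libraries and 20.5 and 14.4 FPKM in RUVBL1 libraries, against 28.5 and 29.5 FPKM in sgNeg3. UHRF1, which keeps DNA methylation through replication, averaged 36.3% of sgNeg3 in RUVBL2 knockouts and 54.6% in RUVBL1 knockouts. CHAF1A and CHAF1B were called lower in both. CCNE2, cyclin E2, averaged 49.2% of sgNeg3 in RUVBL2 knockouts and 44.4% in RUVBL1 knockouts, while CCNE1 and E2F1 were not called in either.

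RPA2, the middle subunit of the single-strand binding protein, went the other way. It had 14.2 and 16.7 FPKM in RUVBL2 libraries and 18.6 and 19.5 FPKM in RUVBL1 libraries, against 9.53 and 9.75 FPKM in sgNeg3, with differences of 0.62 (adjusted p = 0.033 in limma) and 0.91 (adjusted p = 0.0089 in limma). It was the single member called higher in each of the 2 knockouts. Its partners RPA1 and RPA3 were called in neither. The RPA2 call in RUVBL2 knockouts was lost with no filter on low values.

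Outside the 49, CDKN1A averaged 211% of sgNeg3 in RUVBL2 knockouts and 231% in RUVBL1 knockouts. E2F7, a repressing E2F factor, had a difference of 1.11 in RUVBL2 knockouts (adjusted p = 0.0116 in limma) and 0.86 in RUVBL1 knockouts (adjusted p = 0.0388 in limma). CCNA2, the S phase cyclin A2, averaged 30.4% and 44.8% of sgNeg3. Of 37 other S phase genes, 19 fell and 3 rose in RUVBL2 knockouts, and 17 fell and 3 rose in RUVBL1 knockouts. Of 35 G2/M genes 35 fell in RUVBL2 knockouts, with a median of -1.47, and 34 fell in RUVBL1 knockouts, with a median of -1.05. The members' medians, -0.40 and -0.29, were nearer to 0.

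Set directly against each other, RUVBL2 and RUVBL1 knockouts differed in no member at an adjusted p under 0.05 in limma, with 7 members at an unadjusted p under 0.05. Among all 11063 genes 0.00904% were called, and 594 had an unadjusted p under 0.05 in limma. The median was -0.16 over the members, and the smallest unadjusted p belonged to POLD1, with a difference of -0.48 (SE 0.11, adjusted p = 0.646). With the spread estimated only from the libraries compared, the members called numbered 35 for RUVBL2, 27 for RUVBL1 and 1 in the direct comparison. The share of all genes called with that setting is not given here. Leaving out 1 library at a time gave 10 to 15 members for RUVBL2, lowest without RUVBL2 guide 1 or sgNeg3 replicate 1, with 11 without sgNeg3 replicate 2 and 15 without RUVBL2 guide 2. It gave 2 for RUVBL1 without sgNeg3 replicate 2, 3 without RUVBL1 guide 2 and 4 without sgNeg3 replicate 1.

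TIP60, encoded by KAT5, is the acetyltransferase of the complex. In its knockouts many members were higher: 22 of 48 tested were called higher and no member was called lower, against 15.4% higher and 26.6% lower among 11382 genes. With either sign, 26 of the 48 members had an unadjusted p under 0.05 in limma, as did 5687 of all 11382 genes. The median was 0.42 over the members and -0.09 over all genes. The same sgNeg2 pair is the control of TIP60, EP400, TRRAP and 7 further knockouts of this block, so these comparisons are not independent of each other.

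Among licensing genes 4 of 10 rose. ORC6, a subunit of the origin recognition complex, had 22.9 and 20.2 FPKM in TIP60 libraries, against 11.3 and 7.49 FPKM in sgNeg2. Both TIP60 libraries were above both controls, with a difference of 1.14 (SE 0.18, adjusted p = 0.000129). CDC6, which helps to load the ring, averaged 15.2 ± 1.02 FPKM in TIP60 knockouts and 8.65 ± 0.637 FPKM in sgNeg2 (SD, n = 2 each). MCM4 and MCM5 also rose, while MCM2, MCM3, MCM6 and MCM7, the other measured subunits of the same ring, were not called.

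GINS4, a subunit of the helicase activator GINS, had the largest difference of any member in any knockout. It had 15.5 and 16.1 FPKM in TIP60 libraries, against 4.40 and 4.06 FPKM in sgNeg2. That is 373% of the control, a difference of 1.68 (SE 0.12, adjusted p = 3.72e-07). GINS2 and GINS3 rose too, with GINS3 at 179% of sgNeg2, while GINS1 was not called.

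Of 9 polymerase and primase genes 3 rose. POLD1 had 24.2 and 26.3 FPKM in TIP60 libraries, against 17.6 and 14.4 FPKM in sgNeg2. PRIM2 had 4.44 and 7.08 FPKM in TIP60 libraries, against 2.38 and 3.57 FPKM in sgNeg2, so the guides differed by more than the controls did. The third was POLA2, the regulatory subunit of polymerase alpha. Of 11 clamp, loader and joining genes 7 rose, including 4 of the 5 loader subunits: RFC1, RFC3, RFC4 and RFC5. PCNA, the sliding clamp, had 224 and 222 FPKM in TIP60 libraries, against 136 and 123 FPKM in sgNeg2, a difference of 0.78 (SE 0.17, adjusted p = 0.0019).

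RRM2 was the 1 nucleotide supply gene that rose. It had 80.2 and 63.4 FPKM in TIP60 libraries, against 37.8 and 30.9 FPKM in sgNeg2. TK1, TYMS and RRM1, the 3 that fell in RUVBL2 and BRD8 knockouts, were not called. E2F1, the activating transcription factor, had 42.7 and 32.4 FPKM in TIP60 libraries, against 18.9 and 15.5 FPKM in sgNeg2, a difference of 1.07 (SE 0.16, adjusted p = 0.000102). CCNE2 averaged 170% of sgNeg2, CHAF1A 155% and UHRF1 136%. The UHRF1 call was lost when the spread was estimated from these 4 libraries alone.

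Outside the 49, CCND1, cyclin D1, had 379 and 355 FPKM in TIP60 libraries, against 210 and 215 FPKM in sgNeg2. CCND2, cyclin D2, had 1.23 and 0.866 FPKM in TIP60 libraries, against 5.23 and 5.33 FPKM in sgNeg2. Of 22 G1 regulators 1 rose and 4 fell. Of 37 other S phase genes 10 rose and 2 fell, and EXO1, an exonuclease, averaged 205% of sgNeg2. POLD4, the smallest subunit of polymerase delta, averaged 40.5%. Of 35 G2/M genes 6 rose and 2 fell, with a median of 0.20. CDKN1A averaged 196 FPKM in TIP60 knockouts and 215 FPKM in sgNeg2 and was not called.

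The 2 sgNeg2 libraries differed from each other in these genes, with summed member levels of 982 FPKM in replicate 1 and 814 FPKM in replicate 2. The 2 TIP60 libraries summed to 1256 and 1217 FPKM. Without sgNeg2 replicate 2, the lower of the controls, 12 members were called in place of 22.

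**Figure D3:**
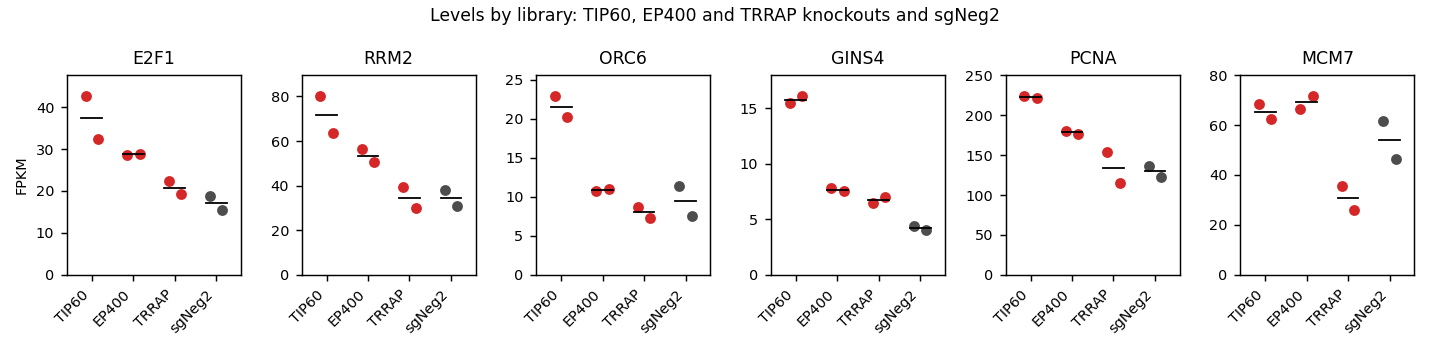
FPKM (vertical axes, from 0) of 6 members in each library of TIP60, EP400 and TRRAP knockouts (red) and sgNeg2 (grey), with lines at group means. GINS4 stands at 15.5 and 16.1 FPKM with TIP60 guides and at 4.40 and 4.06 FPKM with sgNeg2, with EP400 and TRRAP between; MCM7 is lowest with TRRAP guides.

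EP400 is the ATPase that exchanges H2A.Z into nucleosomes. In EP400 knockouts 3 of 48 members were called higher, and no member was called lower, against 1.56% higher and 2.27% lower among all genes. An unadjusted p under 0.05 in limma was found for 21 of the 48 members and for 2237 of all 11382 genes. GINS4 had 7.81 and 7.52 FPKM in EP400 libraries, against 4.40 and 4.06 FPKM in sgNeg2 (difference 0.73, SE 0.12). E2F1 had 28.6 and 28.9 FPKM, against 18.9 and 15.5 FPKM in sgNeg2. RRM2 had 56.3 and 50.6 FPKM, against 37.8 and 30.9 FPKM in sgNeg2. The median over the members was 0.29, against -0.03 over all genes. Both EP400 libraries lay above both controls in 36 of 48 members, a count that was not made over all genes. Leaving out any of the 4 libraries left 0 members called, and no filter on low values left 1, while the spread of these 4 libraries alone gave 12.

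TRRAP is the scaffold that binds transcription factors. In TRRAP knockouts GINS4 was called higher and MCM7 lower, 1 member each way of 48, against 6.54% higher and 7.71% lower among all genes. MCM7 had 35.7 and 26.0 FPKM in TRRAP libraries, against 61.5 and 46.5 FPKM in sgNeg2, a difference of -0.79 (SE 0.17, adjusted p = 0.0097). GINS4 had 6.45 and 6.99 FPKM in TRRAP libraries, against 4.40 and 4.06 FPKM in sgNeg2. The median was -0.16 over the members, and -0.51 over 35 G2/M genes, of which 8 fell. The guides differed, with member sums of 898 FPKM for guide 1 and 704 FPKM for guide 2: without guide 1, 9 members were called, without guide 2, 0, and without sgNeg2 replicate 1 or replicate 2, 1.

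The difference between TIP60 and TRRAP knockouts was tested directly, without the control pair. Of 48 members 30 were higher in TIP60 knockouts and no member was lower, against 14.6% higher and 23.7% lower among all genes. An unadjusted p under 0.05 in limma was found for 37 of the 48 members and for 5389 of all 11382 genes. The median was 0.55. All 6 helicase activators were higher, as were 7 of 10 licensing and 8 of 11 clamp, loader and joining genes. FEN1 had 42.0 and 40.7 FPKM in TIP60 libraries, against 26.7 and 21.6 FPKM in TRRAP libraries. RFC4, a loader subunit, had 22.3 and 26.8 FPKM in TIP60 libraries, against 14.2 and 10.5 FPKM in TRRAP libraries. Of 35 G2/M genes 28 were higher in TIP60 knockouts, with a median of 0.78. Without TRRAP guide 2, 16 members were called higher or lower.

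Against EP400 knockouts, TIP60 knockouts had 4 members higher and 1 lower, where 7.82% of all genes were higher and 13.5% lower. The members' shares were 8.33% higher, close to that of all genes, and 2.08% lower. ORC6 had 22.9 and 20.2 FPKM in TIP60 libraries, against 10.8 and 11 FPKM in EP400 libraries (difference 0.92, SE 0.18, adjusted p = 0.00206). GINS4 had 15.5 and 16.1 FPKM in TIP60 libraries, against 7.81 and 7.52 FPKM in EP400 libraries. CDC6 and POLE were also higher in TIP60 knockouts. MCM2, a ring subunit, was lower, with 13.8 and 15.9 FPKM in TIP60 libraries, against 23.0 and 23.1 FPKM in EP400 libraries (difference -0.61, adjusted p = 0.0177 in limma). Without EP400 guide 1 or without EP400 guide 2, 2 members were called. With libraries centred on their medians 11 were called, and with the spread of these 4 libraries alone 3. The shares of all genes called with these settings are not given here.

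In the other 7 knockouts of the sgNeg2 block no member was called in limma. Leaving aside MEAF6 and VPS72, with 1 library each, 3 to 8 members were at an unadjusted p under 0.05 in limma. Of all 11382 genes, 1021 to 1923 were. The share of all 11382 genes called was also small: 0.0% for DMAP1, 0.94% for GAS41, 0.782% for ACTL6A, 0.264% for MRGBP, 0.0264% for ING3, 0.0% for MEAF6 and 0.0% for VPS72. In DMAP1 knockouts MCM4 had 42.4 and 38.3 FPKM, against 30.7 and 29.1 FPKM in sgNeg2, and PCNA averaged 139% of sgNeg2. Both DMAP1 libraries were above both controls in each case, yet the adjusted p was 0.339 for MCM4 and 0.401 for PCNA in limma. GINS4 was among the 2 members of smallest unadjusted p in ACTL6A, MRGBP, ING3 and MEAF6 knockouts, at 137% to 139% of sgNeg2 in each, with adjusted p of 0.146, 0.194, 0.27 and 1 in limma. GAS41, a reader of acetylated histones, had the one median below 0 among these 7 knockouts, -0.06, with RRM1 at 77.0% of sgNeg2 and CCNE1 at 148%, neither called. VPS72, an H2A.Z chaperone, had CDT1 at 8.65 FPKM in its 1 library, against 5.90 and 4.27 FPKM in sgNeg2. Levels of the 7 targeted mRNAs are not given here, so these results do not say how far each target was lost.

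MORF4L1 and MORF4L2 knockouts, set against sgNeg3, had no member called in limma, with 1 and 0 members at an unadjusted p under 0.05. Of all genes 0.0% were called for MORF4L1 and 0.0% for MORF4L2, and 85 and 230 of 11063 had an unadjusted p under 0.05 in limma. Their own mRNAs averaged 103% and 92.8% of sgNeg3. PRIM1 had 5.28 and 6.37 FPKM in MORF4L1 libraries, against 6.88 and 8.75 FPKM in sgNeg3. RFC5 had 10.4 and 10.1 FPKM in MORF4L2 libraries, against 12.3 and 11.9 FPKM in sgNeg3.

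H2AZ is the histone variant that the complex places, and H2AFZ mRNA averaged 120 FPKM in H2AZ knockouts and 647 FPKM in sgNeg4. Of 48 members 1 was called higher and 1 lower, against 2.6% higher and 3.42% lower among 11087 genes, and the members' median was -0.07 beside -0.01 over all genes. PRIM1 was the higher one, with 8.54, 8.66, 10.3 and 9.84 FPKM in H2AZ libraries, against 7.01 and 5.31 FPKM in sgNeg4 (difference 0.54, adjusted p = 0.0406 in limma). POLE2 was the lower one, with 2.28, 2.62, 1.84 and 1.97 FPKM in H2AZ libraries, against 3.58 and 4.29 FPKM in sgNeg4 (difference -0.64, adjusted p = 0.0289 in limma). For neither gene did the H2AZ libraries overlap the controls. Both calls were lost with no filter on low values and with either guide alone; without H2AZ guide 1 replicate R2 1 member was called, and without either guide 2 replicate none.

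**Figure D4:**
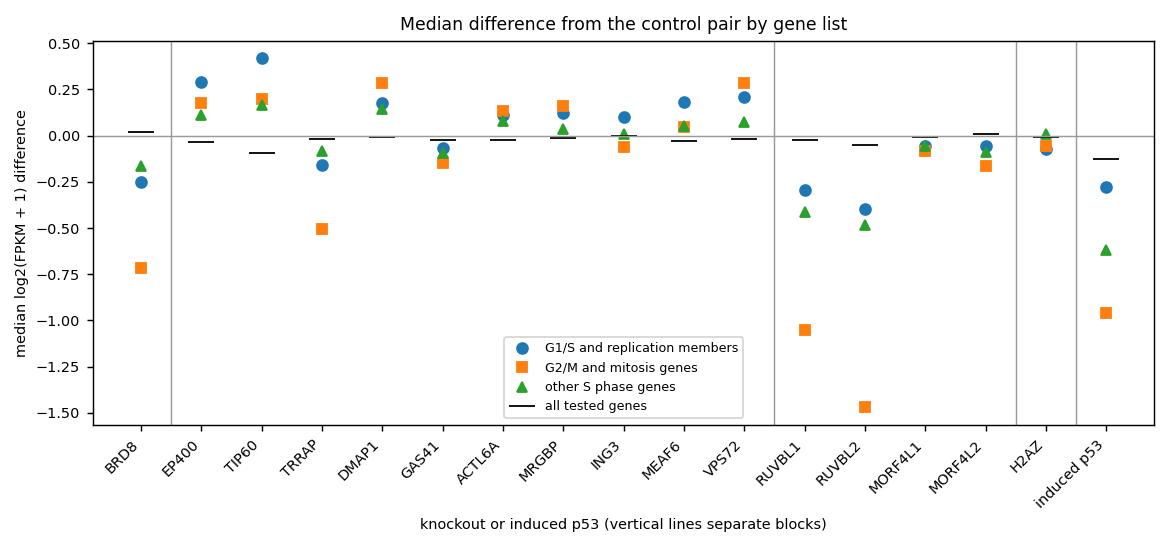
Median difference in log2(FPKM + 1) from the control pair of the block for the members (circles), G2/M and mitosis genes (squares), other S phase genes (triangles) and all tested genes (dashes). In BRD8, RUVBL1 and RUVBL2 knockouts the members lie at -0.25, -0.29 and -0.40 and the G2/M genes lower, at -0.72, -1.05 and -1.47. In TIP60 knockouts the members lie at 0.42 and the G2/M genes at 0.20. Member levels were mostly lower in the BRD8 block than in the other sgNeg blocks, and log2(FPKM + 1) understates the change of low genes.

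Most genes differed between A382_P53 and A382_PCW cells, so the members have to be read against a high background. The series holds no A382_P53 cells without doxycycline, so induced p53 and other differences between these cells cannot be told apart. Of 45 members tested, 12 were called higher and 21 lower. Among all 12203 genes 37.6% were called higher and 46.7% lower, and the members' 26.7% and 46.7% are below the first and close to the second. The median difference was -0.28 over the members and -0.13 over all genes. ORC1, MCM10, POLE2 and E2F2 were too low to be tested.

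Members of the same machine went opposite ways. CDT1, the licensing factor, had 14.9 and 15.9 FPKM in A382_P53 libraries, against 1.79 and 1.40 FPKM in A382_PCW, a difference of 2.67 (SE 0.095, adjusted p = 2.54e-07). MCM3, which CDT1 helps to load, had 6.48 and 6.70 FPKM in A382_P53 libraries, against 17 and 19.1 FPKM in A382_PCW, a difference of -1.33 (SE 0.076, adjusted p = 2.42e-06). MCM2 and MCM6 fell too, MCM5 rose to 135% of A382_PCW, and MCM4 and MCM7 were not called. Within GINS, GINS4 averaged 239% of A382_PCW and GINS3 33.9%.

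Of 8 polymerase and primase genes 5 fell and 1 rose. POLD2, an accessory subunit of polymerase delta, had 32.3 and 29.2 FPKM in A382_P53 libraries, against 76.2 and 79.8 FPKM in A382_PCW. POLA1, the catalytic subunit of polymerase alpha, averaged 29.6% of A382_PCW, while its partner POLA2 averaged 183%. In the clamp loader, RFC4 averaged 218% of A382_PCW and RFC3 fell by 1.58 on the log2 scale. PCNA, itself a known p53 target, had 133 and 128 FPKM in A382_P53 libraries, against 68.6 and 64.3 FPKM in A382_PCW. LIG1, the ligase that joins Okazaki fragments, averaged 275% of A382_PCW.

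In nucleotide supply 3 of 4 genes rose: RRM1 to 290% of A382_PCW, TK1 to 186% and TYMS to 154%. RRM1 had 38.0 and 41.0 FPKM in A382_P53 libraries, against 13.4 and 13.8 FPKM in A382_PCW. RRM2, its partner, was called lower. UHRF1 averaged 29.8% and CHAF1B 203% of A382_PCW. No G1/S switch gene was called at an adjusted p under 0.05 in limma. The SLBP call, at 112% of A382_PCW, was lost when libraries were centred on their medians.

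**Figure D5:**
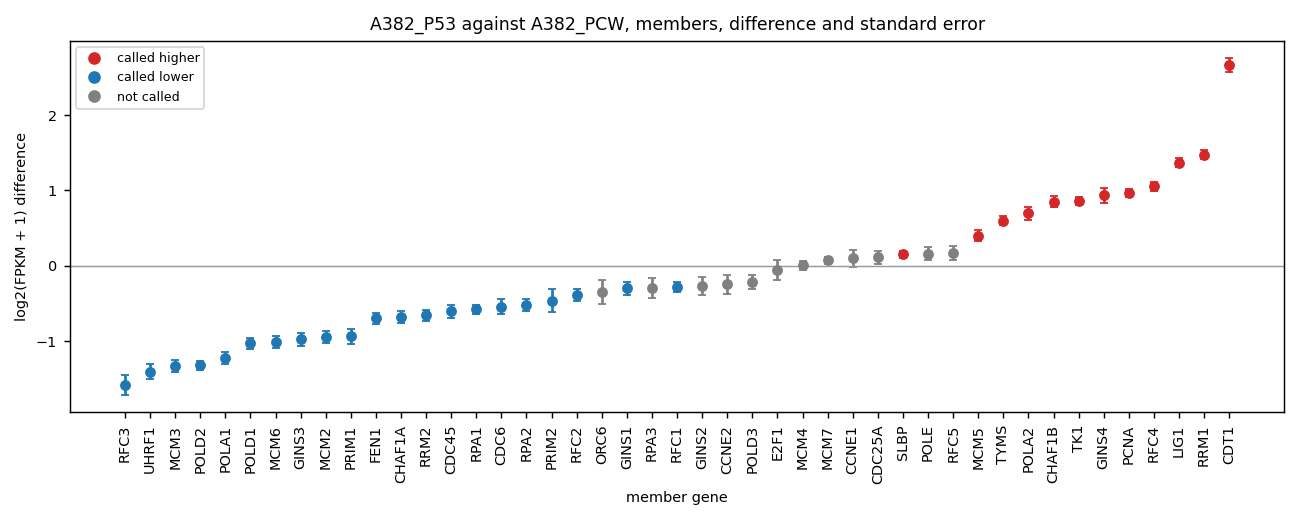
Difference in log2(FPKM + 1) between A382_P53 and A382_PCW for the 45 tested members in rising order, with bars of 1 standard error; red marks members called higher, blue lower and grey not called. The differences run from -1.58 for RFC3 to 2.67 for CDT1, with 21 members called lower and 12 higher.

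Outside the 49, CDKN1A had 822 and 777 FPKM in A382_P53 libraries, against 250 and 254 FPKM in A382_PCW. Of 36 other S phase genes 24 fell and 6 rose, and of 35 G2/M genes 33 fell and 2 rose, with a median of -0.96. One of the 2 was PTTG1, securin, at 790% of A382_PCW. CDKN2C, an inhibitor of CDK4 and CDK6, averaged 13.9%. LIN37 and LIN9 of the MuvB core averaged 452% and 352%.

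Blocks with separate controls can be set side by side by their calls. The 23 members lower in BRD8 knockouts and the 22 lower in RUVBL2 knockouts shared 14, which is 60.9% of the BRD8 list and 63.6% of the RUVBL2 list. Of the 42 members tested in both, 47.6% were lower in RUVBL2 knockouts. Among all 8232 genes tested in both, 43.2% of those lower in BRD8 knockouts were lower in RUVBL2 knockouts, where 18.6% of all were. The 14 shared members were MCM2, MCM3, MCM6, MCM7, POLA2, PRIM1, POLD1, POLE2, RFC5, LIG1, RRM1, TYMS, TK1 and CHAF1B. Of the 23 members lower in BRD8 knockouts, 8 were lower and 7 higher in A382_P53 cells, which is 38.1% and 33.3% of the 21 tested in both. Over all members tested in both the shares were 45% and 27.5%. Among all genes lower in BRD8 knockouts, 50.1% were lower and 34.3% higher with p53. Of all genes tested in both, 53.8% and 30.1% were. The 7 members lower in BRD8 knockouts and higher with p53 were LIG1, MCM5, POLA2, RRM1, TK1, TYMS and CHAF1B. Of the 22 members lower in RUVBL2 knockouts, 9 were lower and 8 higher in A382_P53 cells. That is 45% and 40% of the 20 tested in both, where all such members had 46.7% and 26.7%. Among all genes lower in RUVBL2 knockouts, 55.2% were lower and 30.4% higher with p53. Of all genes tested in both, 51.1% and 31.8% were. Of the 22 members higher in TIP60 knockouts, 20 were tested in the BRD8 block, and 7 of these (35%) were lower there. Of the 22, 8 (36.4%) were lower in RUVBL2 knockouts, 11 (50%) lower with p53 and 5 (22.7%) higher with p53. Over all members tested in each block these shares were 54.8%, 45.8%, 46.7% and 26.7%. Among all genes higher in TIP60 knockouts they were 10.4%, 13.0%, 41.4% and 40.6%. Of all genes tested in both blocks, 1815 of 8305 were lower in BRD8 knockouts and 2185 of 10948 lower in RUVBL2 knockouts. With p53, 50.7% of 10888 such genes were lower and 32.2% higher. The difference between any of these blocks was not tested, since the blocks were taken as normalised separately.

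The members did not move as 1 unit. Over 36 knockout and p53 libraries, each taken as a difference from its control pair, the median pairwise Pearson r among the 40 members tested in every block was 0.40, a description in which libraries of a block share a control pair. RRM2 was called in 4 knockouts, lower in 2 and higher in 2. The genes whose pattern was most like that of RRM2, among 8159, were HJURP (r = 0.951), BUB1 (r = 0.935) and AURKA (r = 0.926), none of them a member. The nearest members were CCNE2 (rank 15, r = 0.892), CHAF1A (rank 17, r = 0.891), POLD1 (rank 22, r = 0.887) and PRIM1 (rank 64, r = 0.831). Over all members tested in every block the median r with RRM2 was 0.52, and CDT1 had r = 0.0434.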

How the data were processed

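The authors deposited 1 table of FPKM values for 19102 genes in 48 libraries, and the submitters' processing notes list TopHat2, Cufflinks, Cuffdiff and the build hg19 with no roles or versions. How reads of overlapping genes and near-identical copies were assigned is not given in the sources used here. The table holds no counts, so its FPKM were tested as log2(FPKM + 1) with limma 3.58.1 in R 4.3.3 (trended empirical Bayes, Benjamini-Hochberg adjustment over all genes tested). Each of the 5 blocks was fitted alone, with 1 level per target, no replicate block, and genes at 1 FPKM or more in at least 2 libraries. MEAF6 and VPS72, with 1 library, borrow the spread of the other groups. The fit was tested on simulated data. Genes outside the 49 came from 4 lists written for this work. The members and all lists were chosen with earlier results of these data known. Named genes are, per role, the 2 called members of smallest adjusted p and members called against the majority. In comparisons with no called member they are the 2 of smallest unadjusted p. Up to 3 called genes of each other list were added, with CDKN1A, E2F7 and the target. The target was not given for DMAP1, GAS41, ACTL6A, MRGBP, ING3, MEAF6 and VPS72. Other genes were named after their values were seen. Depth was read from the steps of low values. Of other columns 0 were left unused.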

Additional observations from a re-analysis of the deposited data

Results flagged for a closer look

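Among groups of 4 libraries, 90 member and group pairs were examined for 1 library that stands apart, and 7 did by Dixon's test at the 95% level; chance gives about 1 in 20. In BRD8 knockouts the library of guide 2 replicate R1 had the highest GINS2, at 2.87 FPKM, where the next library had 2.17 FPKM, and the highest RPA3, at 3.08 FPKM, where the next had 2.40 FPKM. In H2AZ knockouts guide 1 replicate R1 had the highest MCM7, at 82.5 FPKM, the highest TK1, at 74.6 FPKM, and the lowest RRM1, at 37.4 FPKM, where the nearest libraries had 72.3, 63.6 and 44.5 FPKM. In H2AZ knockouts guide 2 replicate R2 had the lowest CDC45, at 12.1 FPKM, and the lowest LIG1, at 15.2 FPKM, where the nearest libraries had 14.3 and 17 FPKM. None of the 5 genes flagged in H2AZ knockouts was called there.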

How the results depend on the processing

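No named member reversed its direction. Over the other settings (pseudocount 0.1, no filter on low values, only the libraries compared, libraries centred on their medians, a replicate block and single guides), 571 values kept their side of the threshold, 16 lost a call and 1 gained one; leaving out 1 library kept 376 and lost 92. Members called without 1 library ranged from 14 to 24 for BRD8, 0 to 0 for EP400, 12 to 21 for TIP60, 0 to 9 for TRRAP, 2 to 15 for RUVBL1, 10 to 15 for RUVBL2, 0 to 3 for H2AZ, 2 to 6 for TIP60 against EP400, 16 to 30 for TIP60 against TRRAP. Where this leaves 1 library in a group, that library is assumed to vary like the others. With no filter, 1 member was called for EP400 and 0 for H2AZ; with only the libraries compared, 12 for EP400, 27 for RUVBL1, 35 for RUVBL2, 3 for TIP60 against EP400 and 1 for RUVBL2 against RUVBL1; with centring, 11 for TIP60 against EP400; with H2AZ guide 1 or guide 2 alone, 0. With a replicate block 4 members were called for TRRAP in place of 2. Counts of members by setting or left-out library are given without the share of all genes called there. A change in such a count may thus be one of all genes. Deviations of same-numbered libraries correlated at 0.03, -0.03 and -0.01 in the BRD8 block, 0.31, -0.28 and -0.03 in the H2AZ block and 0.04 with p53. In the sgNeg2 block, where the number is a guide in the knockouts and a replicate in sgNeg2, they correlated at 0.58 for MRGBP, 0.47 for TIP60, 0.19 for TRRAP and -0.22 for ACTL6A. The labels give no shared source and not every pair was above 0, so the libraries were not taken as paired; with the replicate block TIP60 had 24 members called. The causes were not tested. Depth was lowest in the sgNeg4 block, where 1 FPKM stood for 4.21 to 7.29 fragments per kilobase.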
